A study of Mus musculus with 33 samples.

Results

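Mature astrocytes of the mouse hippocampal neurogenic niche were chosen by the measured transcripts of 13 astrocyte and stem cell genes in each well, and 163 of 1536 cells passed it. The gate was applied to a deposited table in which each cell had been brought to a near-equal depth of 1407 to 1498 transcripts. A cell passed when Aldoc, Clu, Slc1a3, Hopx, Mlc1, Ttyh1 and Mfge8 together held at least 20 transcripts and when Aqp4, S100b, Kcnk1, Grin2c and F3 together held at least 3, and more than Hopx and Sparc together. The mice were C57BL/6 and labelled wild-type throughout. After neurons had been depleted from the hippocampus, live cells that lacked staining for GluR1 and Cd24, which mark neurons and neuroblasts among other cells, were sorted singly and sequenced from the 3′ end by SORT-seq. The 31 niche libraries came from 5 experiments and held 1109 of the cells, 1 further library came from mice older than 12 months, and 1 came from GFP-positive hippocampal cells of NestinGFP mice, which carry green fluorescent protein under a promoter of the stem cell gene Nestin. The labels state neither the age of the other mice nor the number of mice in an experiment. The p-values thus measure how the difference between cell groups varied between these experiments, a spread that may be technical.

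Astrocytes clear glutamate and potassium from the space around neurons, hold water channels at their endfeet on vessels, and are joined to one another by gap junctions. They supply neurons with glutamine, lipids carried on apolipoprotein E and products of glycolysis, and they store the glycogen of the brain. In the dentate gyrus they stand beside radial glia-like stem cells with which they share many genes, among them Slc1a3, Aldoc and Hopx, and they release factors that act on neighbouring progenitors and new neurons. Aqp4, a water channel, S100b, a calcium-binding protein, Grin2c, an NMDA receptor subunit, and Kcnk1, a potassium channel, are commonly higher in mature astrocytes than in stem cells.

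The 163 cells were 43, 22, 19, 9 and 21 cells of experiments 1 to 5, 4 cells of the old library and 45 cells of the Nestin-GFP library. They made up 11.4%, 6.41%, 15%, 6.62% and 16.7% of the table cells of the 5 experiments, a mean of 11.2% ± 4.69 (SD, n = 5). The share was 3.12% in the old library, with an exact binomial 95% interval of 0.858% to 7.81%, and 15.1% in the Nestin-GFP library, with an interval of 11.2% to 19.6%. These shares are set by the sort and the gate. A further 129 cells passed the first sum and failed the second condition, 79 of them because the second sum was under 3 and 50 because Hopx and Sparc together were as high or higher. These nearest other cells, 87 of them in the niche libraries, served as the closer comparison.

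**Figure D1:**
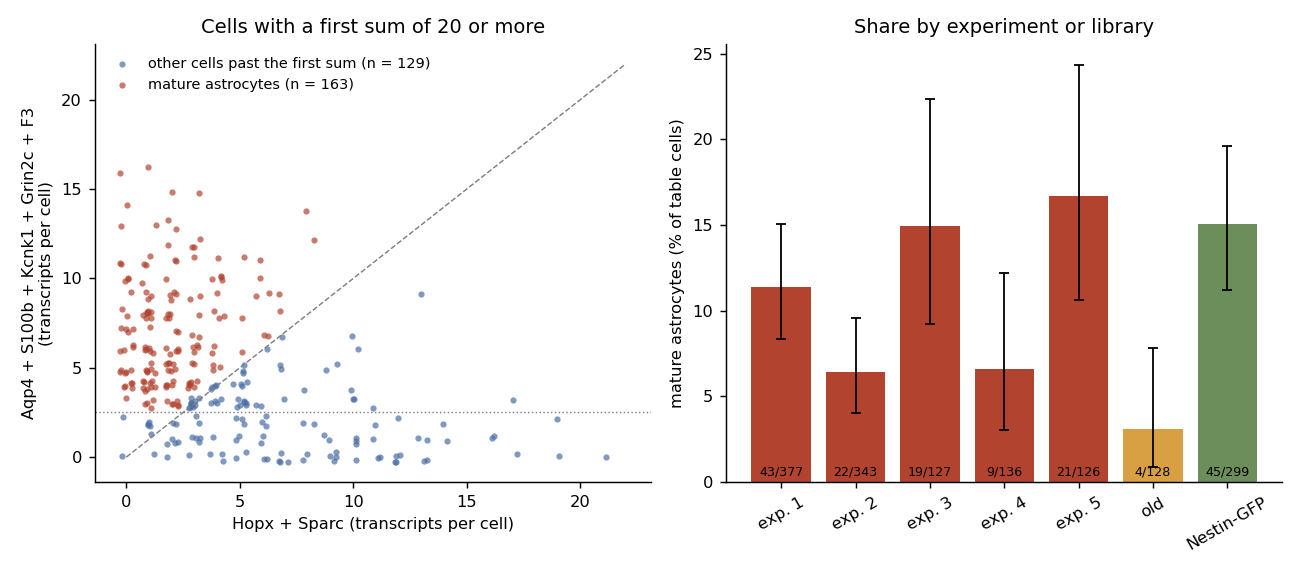
Left, each cell with a first sum of at least 20, by Hopx plus Sparc (x axis) and by the second sum (y axis), in transcripts per cell of the near-equal-depth table, with small random offsets and dashed and dotted lines at the 2 limits. Right, the share of table cells that were mature astrocytes, with exact 95% binomial intervals, which ran from 3.12% in the old library to 16.7% in experiment 5.

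The gate chose these values, so they are a description only. The first sum had a median of 46 transcripts in the mature astrocytes against 48 in the nearest other cells and 2 in all other cells, and the second sum had a median of 6 against 2 and 0. Near the limits, 5 members had a first sum of 20 to 24, while 5 cells with 15 to 19 passed the rest of the gate. A second sum of exactly 3 was held by 11 members, and 5 of the nearest other cells had a second sum of 2 that was above Hopx and Sparc. In 20 members the second sum exceeded Hopx plus Sparc by 1. It equalled Hopx plus Sparc in 19 of the nearest other cells that had a second sum of at least 3.

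Levels were then read from the full count files of the same wells and are given as counts per 1000000 transcripts (CPM) of the group in each experiment. Of the gate genes, Aqp4 stood at 2273, 1244, 1382, 2401 and 2489 CPM in the mature astrocytes of experiments 1 to 5 and at 57.2, 33, 105, 111 and 266 CPM in all other cells. Grin2c stood at 798 ± 109 CPM (SD, n = 5) against 18.1 ± 17.4 CPM. Sparc, a matrix protein that the gate selects against, stood at 312 ± 139 CPM against 1564 ± 678 CPM, and Hopx, which the gate counts on both sides, at 1364 ± 546 against 419 ± 382 CPM with overlapping groups. At near-equal depth, 87.7% of the 114 niche members held an Aqp4 transcript, 64% one of Grin2c, 60.5% one of Kcnk1 and 40.4% one of S100b.

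The other niche cells under the first gate sum were grouped by the marker set with the highest sum. They were led by oligodendrocyte precursor markers in 257 cells, microglia markers in 256, neuronal lineage markers in 200, mature oligodendrocyte markers in 73, vessel markers in 39 and lymphocyte markers in 21. Markers of those types were low in the mature astrocytes. The 9 microglia markers summed to 442 ± 240 CPM against 7734 ± 4155 CPM in all other cells, the 8 oligodendrocyte precursor markers to 517 ± 293 against 4165 ± 2658 CPM, and the 8 mature oligodendrocyte markers to 484 ± 235 against 8379 ± 7950 CPM. The 8 vessel markers summed to 55.3 ± 52.4 against 800 ± 681 CPM, and the 6 lymphocyte markers to 10.7 ± 14.1 against 231 ± 264 CPM. For the 5 choroid plexus markers it was 149 ± 158 against 1593 ± 1631 CPM. The endothelial genes Cldn5, Flt1 and Esam had no transcript in the niche members. Nor had the T cell gene Cd3e and the choroid plexus genes Folr1 and Kl, which were also low in all other cells, at 6.19, 4.46 and 9.36 CPM. The ependymal markers went the other way, with 47.8 ± 15.7 against 18.7 ± 16.7 CPM. Of the 114 niche members, 4 held at least 5 transcripts of another set, 2 of them microglial.

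The experiments differed in depth. The median count per mature astrocyte was 2960, 2636, 4973, 18932 and 2157 transcripts in experiments 1 to 5, against 4062, 7157, 4728, 12312 and 2723 in all other cells. The summed members held 133352, 87577, 110338, 169111 and 61568 transcripts. In the near-equal-depth table the niche members held a median of 946 genes and the other cells under the first gate sum 1031.

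The first question was how the mature astrocytes differ from everything else sorted from the niche. Counts were summed per experiment over the members and over all other cells, and tested in edgeR with the experiment as a block and without the 13 gate genes. Cells chosen for astrocyte genes bring with them the genes that travel with those, so the size of a change describes the chosen cells. Since all other cells include the nearest other cells, a rise may still be shared with them. Of 5567 genes tested, 891 were higher in the mature astrocytes (16% of those tested) and 917 were lower (16.5%), at a Benjamini-Hochberg adjusted p under 0.05. The median log2 difference over all genes was -0.13, and a call in either direction was made for 32.5%. The counts of each gene list below are to be read beside these shares.

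Gja1 and Gjb6, both gap junction genes, were among the 12 largest rises named by the rule, and the first was Aifm3. Aifm3, an apoptosis-inducing factor family member (chr16:17489611-17507485 in GRCm38, as are all gene positions here, each of a protein-coding gene), stood at 203, 229, 255, 252 and 374 CPM in the mature astrocytes of experiments 1 to 5 and at 2.02, 6.19, 16.9, 5.54 and 24.2 CPM in all other cells. The groups were far apart in every experiment, and the log2 difference was 5.07 ± 0.37 (SE; edgeR adjusted p = 9.42e-08). Gja1, which encodes connexin 43 (chr10:56377330-56402513), stood at 2928, 3900, 2602, 2620 and 3059 CPM against 59.9, 93, 333, 155 and 460 CPM, a log2 difference of 4.27 ± 0.42 (adjusted p = 4.4e-07). The lowest experiment of the mature astrocytes lay above the highest of the other cells. Gjb6, which encodes connexin 30 and forms gap junctions beside connexin 43 (chr14:57123303-57133611), rose by 4.17 ± 0.42, with 584 to 780 CPM against 12.0 to 142 CPM.

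Prodh, proline dehydrogenase (chr16:18060357-18090203), stood at 460, 274, 356, 319 and 244 CPM against 11.5, 13.2, 26.1, 9.25 and 33.3 CPM, a log2 rise of 4.50 ± 0.34 (adjusted p = 9.42e-08). Papss2, which makes the sulfate donor of the cell, rose by 4.59 ± 0.42, and the cytochrome P450 gene Cyp4f15 by 4.50 ± 0.43. Agt, the precursor of angiotensin (chr8:124556534-124569706), had 151, 251, 265, 131 and 374 CPM against 4.05, 9.48, 27.7, 6.16 and 33.3 CPM. The gene is a known product of astrocytes, and it rose by 4.27 ± 0.34. Lcat, which esterifies cholesterol on lipoproteins (chr8:105939551-105943382), rose by 4.18 ± 0.38, Bmpr1b, a BMP receptor (chr3:141837136-142169425), by 4.16 ± 0.42, and the phospholipase gene Plcd4 by 4.15 ± 0.41. Hhatl and the P-type ATPase gene Atp13a4 completed the 12 largest rises, at 4.53 ± 0.53 and 4.31 ± 0.35. Each of the 12 was higher in 5 of 5 experiments without overlap, and none lost its call under any alternative run.

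**Figure D2:**
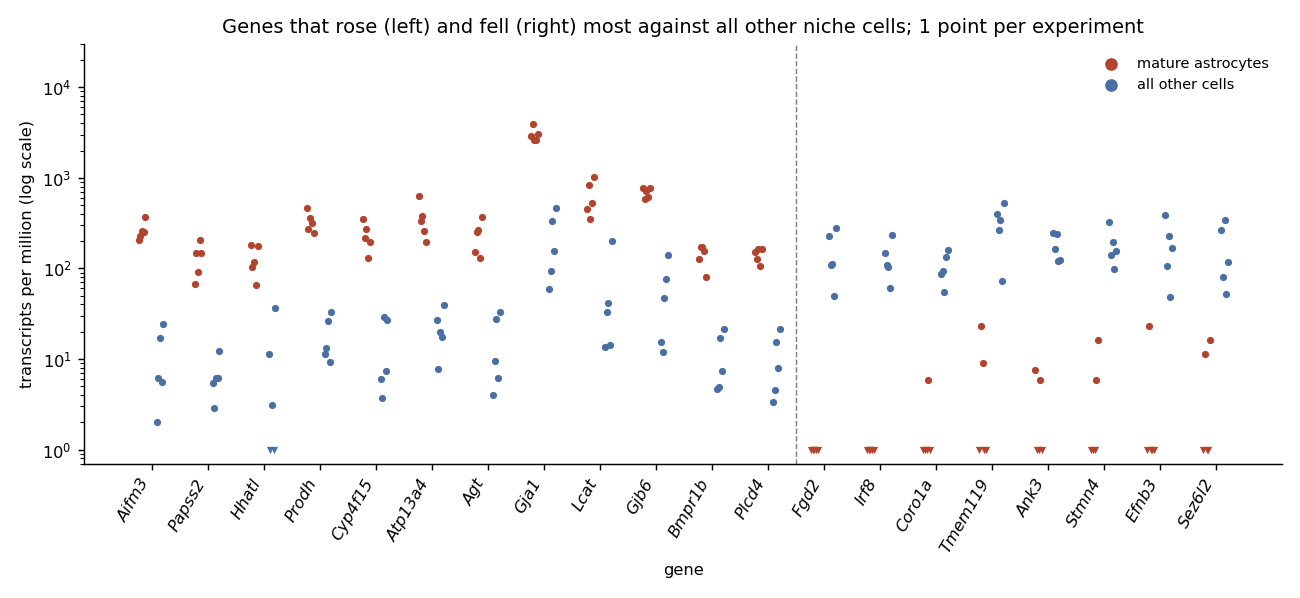
Level of each gene in CPM (log axis; values under 1 drawn as triangles at 1) in the mature astrocytes (red) and all other niche cells (blue), with 1 point per experiment. The 12 genes left of the dashed line rose and the 8 to the right fell, and for no gene did the 2 groups overlap.

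Genes of transmitter uptake were mostly higher. Of 14 listed genes of glutamate and GABA handling, all tested, 9 rose and 3 fell, with a median log2 difference of 2.02. The share that rose was 64.3% and the share that fell 21.4%, against 16% and 16.5% of all genes. Slc1a2, the main glutamate transporter of the forebrain (chr2:102658659-102790784), stood at 11485, 9614, 10597, 7928 and 13714 CPM in the mature astrocytes and at 880, 1039, 2600, 716 and 3342 CPM in all other cells. It rose by 3.01 ± 0.32 with no overlap (adjusted p = 7.68e-07). Slc7a10, which carries D-serine and other small amino acids (chr7:35186385-35201114), rose by 3.65 ± 0.27, and Slc6a11, a GABA transporter (chr6:114131241-114249952), by 3.01 ± 0.29. Slc7a11, the cystine-glutamate exchanger, rose by 3.15 ± 0.60 with overlapping groups and was not called without the experiment block. Among the 3 that fell were the amino acid transporters Slc38a1 and Slc38a2, which fell by 2.89 and 2.43 on the log2 scale. They are named because the count is small, after their values were seen.

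Of 16 listed genes of potassium, water and gap junctions, 13 could be tested and 11 rose, with a median of 2.41. Slc4a4, a bicarbonate cotransporter (chr5:88886818-89239653), rose by 3.82 ± 0.32, from 98.4 ± 57.5 to 1104 ± 141 CPM. The 1 that fell was Slc12a2, a chloride importer, by 2.41.

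Receptors were next. Of 25 listed neurotransmitter and peptide receptor genes 14 could be tested, of which 11 rose and 1, the AMPA receptor gene Gria1, fell by 1.54 (median of the list 1.91). Ntsr2, a neurotensin receptor (chr12:16653382-16660227), stood at 2530, 2450, 1964, 1871 and 2798 CPM against 129, 160, 267, 105 and 509 CPM and rose by 3.68 ± 0.31. Grm3, a metabotropic glutamate receptor, rose by 3.55 ± 0.34, Gabrb1, a GABA-A receptor subunit, by 3.28 ± 0.28, and Adra2a, an adrenergic receptor, by 3.04 ± 0.44.

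Of 21 growth factor receptors and ligands, 14 could be tested, and 9 rose and 2 fell (median 1.94). The share that fell was 14.3%, against 16.5% of all genes. Fgfr3, a receptor for fibroblast growth factors (chr5:33721674-33737068), rose by 3.54 ± 0.32, from 129 ± 97.8 to 1144 ± 190 CPM. Vegfa, which encodes the vascular growth factor VEGF (chr17:46016993-46032369), stood at 756, 927, 898, 1036 and 666 CPM against 164, 127, 224, 126 and 148 CPM and rose by 2.59 ± 0.24 (adjusted p = 3.31e-07). Among the marker-led groups the highest mean of Vegfa was 449 CPM, in cells led by oligodendrocyte precursor markers. Pdgfra, the receptor that marks those precursors, fell by 3.60 ± 0.33, and Erbb2ip, named after its value was seen, by 0.95.

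Of 36 listed genes of the Notch, BMP, Wnt and Hedgehog pathways 21 could be tested, and 17 rose and none fell (median 1.52; 17 and 0 in DESeq2). Id4 and Id3, inhibitors of differentiation that respond to BMP signals, rose by 3.21 ± 0.30 and 2.93 ± 0.30. Id4 stood at 672, 965, 572, 399 and 829 CPM against 32.4, 101, 120, 48.9 and 142 CPM. Gli3, a transcription factor of the Hedgehog pathway, rose by 2.70 ± 0.41. The nearest other cells had means of 696 CPM for Id4 and 182 CPM for Gli3, against 687 and 155 CPM in the mature astrocytes. For Id3 the means were 262 CPM in the nearest other cells and 548 CPM in the mature astrocytes. Vessel-led cells had a higher mean of Id3, at 1191 CPM. No marker-led group was above 24.5 CPM for Id4 or 25.1 CPM for Gli3. Of 28 transcription factors of astroglia tested (31 listed), 12 rose and 5 fell, with a median of 0.86. The share that rose was 42.9%, against 16% of all genes, and the share that fell was 17.9%, near the 16.5% of all genes. Rorb, Klf15, Sox9 and Dbx2 rose by 2.66 ± 0.32, 2.55 ± 0.34, 2.48 ± 0.35 and 2.22 ± 0.24, of which Rorb was not called without the block. Sox9, which specifies and maintains astroglia (chr11:112782224-112787760), had 931, 1080, 868, 1366 and 1170 CPM against 44, 208, 398, 318 and 284 CPM. Sox8, Nfib, Nfix and Klf3 were among the 5 that fell, and they are named after their values were seen.

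The metallothioneins are small proteins that bind zinc and copper. Mt1 (chr8:94179082-94180327) stood at 2503, 6482, 6108, 4387 and 3629 CPM in the mature astrocytes and at 258, 668, 818, 240 and 788 CPM in all other cells. It rose by 3.29 ± 0.29 (adjusted p = 2.3e-07), with no overlap. Mt2, its neighbour (chr8:94172664-94173568), rose by 3.25 ± 0.32, with 2054, 3226, 3915, 1533 and 1430 CPM against 120, 314, 532, 134 and 448 CPM. Both genes had their highest mean among marker-led groups far lower, at 371 CPM in vessel-led cells for Mt1 and 196 CPM in neuronal lineage-led cells for Mt2. The marker-led groups leave out the nearest other cells, where Mt1 had a mean of 2827 CPM against 4622 CPM in the mature astrocytes. Mt3 did not pass the filter on low counts.

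The promoters of this pair are shown because both genes rose together. Metallothionein genes are known to be switched on through the metal response element, whose core was searched as TGCACNC or TGCGCNC on both strands in the 250 bases before each RefSeq start (GRCm38.p6). The stretch before Mt1 is chr8:94178839-94179088 and that before Mt2 chr8:94172368-94172617, both read on the plus strand, with matches in capitals. The RefSeq start of Mt1 lies a few bases inside the GENCODE gene. That of Mt2 lies upstream of its GENCODE gene, which begins at 94172664, while the window ends at 94172617. Distances are counted from the RefSeq starts.
Mt1: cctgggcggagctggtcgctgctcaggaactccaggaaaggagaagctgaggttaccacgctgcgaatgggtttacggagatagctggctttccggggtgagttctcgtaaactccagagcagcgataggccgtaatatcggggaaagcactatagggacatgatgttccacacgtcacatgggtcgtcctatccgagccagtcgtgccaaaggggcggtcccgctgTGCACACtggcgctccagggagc
Mt2: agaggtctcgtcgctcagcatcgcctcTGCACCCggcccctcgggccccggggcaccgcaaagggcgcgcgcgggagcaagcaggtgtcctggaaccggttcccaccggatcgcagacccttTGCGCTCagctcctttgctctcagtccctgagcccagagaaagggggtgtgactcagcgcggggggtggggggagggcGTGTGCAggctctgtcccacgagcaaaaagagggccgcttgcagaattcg
The Mt1 window held 1 match, 23 bases before the start, and the Mt2 window held 3, at 223, 128 and 50 bases, the last on the minus strand. The 50 bases after the annotated start, not shown, held 2 more for Mt1 and 1 more for Mt2. Of 32851 promoter windows, 21.4% held at least 1 match and 5.17% at least 2. A match is a description of the letters and no measurement of binding.

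Lipid genes were mostly higher. Of 31 listed genes of lipid carriers and cholesterol 23 could be tested, and 15 rose and 1, the lysosomal cholesterol carrier Npc2, fell by 0.87 (median 1.51). Apoe, the main lipid carrier of the brain (chr7:19696109-19699188), had 14419, 20747, 14863, 9661 and 20834 CPM against 1816, 2326, 2884, 1806 and 4423 CPM and rose by 2.75 ± 0.27. Nsdhl, an enzyme of cholesterol synthesis, rose by 2.28 ± 0.30, and Cyp46a1, which hydroxylates cholesterol for export, by 2.28 ± 0.41. Of 27 fatty acid genes 20 could be tested, and 17 rose and none fell (median 1.67; 17 and 0 in DESeq2). The acyl-CoA synthetases Acsbg1 (chr9:54604877-54661870) and Acsl6 (chr11:54303798-54364756) rose by 3.65 ± 0.32 and 3.40 ± 0.29. The elongase Elovl2 rose by 3.32 ± 0.48, and Ppargc1a, a coactivator of mitochondrial genes, by 3.06 ± 0.35.

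Of 26 genes of glycolysis and glycogen 20 could be tested, and 16 rose and none fell (median 1.46; 16 and 0 in DESeq2). The 4 genes of the list named here act on glycogen. Phkg1, a subunit of phosphorylase kinase (chr5:129863421-129898549), had 233, 217, 200, 65.3 and 260 CPM against 7.41, 5.35, 26.1, 12.3 and 63.5 CPM and rose by 3.63 ± 0.45. The glycogen phosphorylases Pygm and Pygb rose by 3.06 ± 0.41 and 2.76 ± 0.28, and Ppp1r3c, which targets a phosphatase to glycogen, by 3.04 ± 0.39. Of 27 amino acid and one-carbon genes 19 could be tested, and 13 rose and 1, the creatine synthesis gene Gatm, fell by 1.47 (median 1.54). Beside Prodh, Aldh1l1, a folate enzyme used as an astrocyte marker (chr6:90486427-90600203), rose by 3.97 ± 0.37, with 126 to 406 CPM against 6.18 to 72.6 CPM. Cbs, which makes cystathionine, rose by 3.04 ± 0.38 and Gldc, of glycine breakdown, by 2.31 ± 0.35. The nearest other cells had means of 329 CPM for Cbs and 311 CPM for Gldc, against 294 and 256 CPM in the mature astrocytes. For Aldh1l1 the means were 185 CPM in the nearest other cells and 252 CPM in the mature astrocytes.

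Nuclear genes of oxidative phosphorylation shifted less. Of 45 tested, 18 rose and none fell (46 listed; median 0.56; 16 and 0 in DESeq2). The largest rises were those of Uqcr10, Uqcr11, Ndufc2 and Ndufb10, at 1.30 ± 0.26, 1.30 ± 0.27, 1.25 ± 0.23 and 1.19 ± 0.26. Ndufc2, a complex I subunit (chr7:97400003-97407802), had 1083, 990, 925, 893 and 699 CPM against 320, 484, 421, 441 and 442 CPM.

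Among 41 secreted, matrix and synapse-acting genes 29 could be tested, of which 21 rose and 5 fell (median 1.53). The share that fell was 17.2%, near the 16.5% of all genes. Hapln1, which links hyaluronan to proteoglycans (chr13:89539796-89611652), had 324, 492, 283, 453 and 211 CPM against 12.8, 10.7, 46.2, 16.1 and 75.6 CPM and rose by 4.05 ± 0.45. Lgi4, a secreted protein, rose by 3.92 ± 0.35, Btbd17 by 3.12 ± 0.40 and Scg3, of the secretory granule, by 2.77 ± 0.24. The 5 that fell were Spon1, Vcan, Olfm1, Ctsd and Nlgn2, named after their values were seen.

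Phagocytosis receptors and reactive genes held calls in both directions. Of 10 phagocytosis genes tested (12 listed) 5 rose and 2 fell, with a median of 0.70. The share that rose was 50% and the share that fell 20%, against 16% and 16.5% of all genes. Axl, Mertk and Megf10, receptors for dying cells and synapses, rose by 2.07 ± 0.26, 1.70 ± 0.34 and 1.51 ± 0.32. The groups overlapped for Mertk. Pros1, a ligand of Mertk, fell by 1.40 ± 0.38 with overlap and was not called without experiment 1. Only 9 of 38 reactive astrocyte genes passed the filter, and 4 rose and 4 fell (median 0.48). Gfap, the intermediate filament protein of astrocytes (chr11:102887336-102900912), and C4b, a complement component (chr17:34728380-34743882), rose by 3.27 ± 0.44 and 3.51 ± 0.40, both with overlapping groups. Srgn, known from immune cells, fell by 2.86 ± 0.46 with overlap, and Cd14, a receptor of innate immunity, fell by 2.82 ± 0.43.

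The genes that fell most are known from microglia, lymphocytes and oligodendrocytes. Fgd2 and Irf8 had no transcript in the 114 niche members and were at least 29.1-fold and 24.7-fold lower than in all other cells, with 3 counts over the group as the floor. Coro1a, with 1 transcript, was lower by a ratio of 57.3 with a counting interval of 10.2 to 2266, and Tmem119, a microglial gene with 3, by a ratio of 50.4 (17.2 to 244). Their highest means lay in microglia-led or lymphocyte-led cells. Ank3 and Stmn4 had 2 transcripts each, with ratios of 50.1 (13.8 to 414) and 50 (13.8 to 413), and Efnb3 and Sez6l2 likewise, with 47.9 (13.2 to 396) and 40.3 (11.1 to 333). All 4 were highest in mature oligodendrocyte-led cells, at 647, 1232, 1467 and 1392 CPM.

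Immediate early and dissociation response genes, which switch on within minutes of a stimulus, were lower in the mature astrocytes. Of 32 tested (38 listed) none rose and 26 fell, with a median of -2.02 (0 and 26 in DESeq2). Klf2 (chr8:72319033-72321656) had 15, 0, 27.3, 11.8 and 0 CPM against 461, 265, 461, 152 and 599 CPM and fell by 4.71 ± 0.42. Atf3 (chr1:191170296-191218039) fell by 3.68 ± 0.40, Sgk1 by 3.55 ± 0.37 and Zfp36, which shortens the life of messenger RNAs, by 3.34 ± 0.35. These genes were not at one level in the other cells. Atf3 had a mean of 2295 CPM in microglia-led cells, 249 CPM in vessel-led cells and 5.42 to 31.5 CPM in the other marker-led groups, against 34.8 CPM in the mature astrocytes. Zfp36 had 4134 CPM in microglia-led cells, 633 CPM in lymphocyte-led cells, 620 CPM in vessel-led cells and 82.4 to 98.5 CPM in the rest, against 82.5 CPM in the mature astrocytes. Other genes of the list were high in further groups. Klf2 was highest in lymphocyte-led cells, at 1612 CPM, with 914 CPM in vessel-led cells, against 10.8 CPM in the mature astrocytes. Sgk1 had 1797 CPM in microglia-led and 743 CPM in mature oligodendrocyte-led cells but 34.6 CPM in cells led by neuronal lineage markers, against 39.7 CPM. Fos had 805 to 5356 CPM in the 6 marker-led groups, all above the 473 CPM of the mature astrocytes. Egr1 had 423 to 3786 CPM in 5 of these groups and less than the 322 CPM of the mature astrocytes in lymphocyte-led cells. The part of the microglia in the list's count was not tested.

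A cyclic AMP response element, the site of the activity-dependent factor CREB, was searched as TGACGTCA in the promoters of this list, since its members fell together. Of the 35 RefSeq promoters of 27 tested members 2 held it (5.71%), against 1.55% of all 32851 windows. These were Btg2, an antiproliferative gene (chr1:134079156-134079405), and Dusp1, a phosphatase of MAP kinases (chr17:26508473-26508722), both read on the minus strand of GRCm38.p6 with the match in capitals.
Btg2: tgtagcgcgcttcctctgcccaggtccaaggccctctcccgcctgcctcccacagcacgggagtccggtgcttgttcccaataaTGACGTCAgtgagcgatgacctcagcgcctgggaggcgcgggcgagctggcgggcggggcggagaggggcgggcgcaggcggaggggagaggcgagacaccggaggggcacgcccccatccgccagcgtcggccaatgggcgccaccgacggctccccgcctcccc
Dusp1: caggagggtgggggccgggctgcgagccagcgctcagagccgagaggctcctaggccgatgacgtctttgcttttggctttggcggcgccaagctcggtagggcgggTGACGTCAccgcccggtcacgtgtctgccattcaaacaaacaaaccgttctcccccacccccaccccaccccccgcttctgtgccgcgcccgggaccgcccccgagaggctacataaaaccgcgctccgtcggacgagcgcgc
The match lay 166 bases before the start of Btg2 and 143 bases before that of Dusp1. Btg2 fell by 3.20 and Dusp1 by 1.99 on the log2 scale.

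Ribosomal protein genes were lower almost without exception. Of 73 tested (82 listed) none rose and 71 fell, with a median of -1.35 (0 and 70 in DESeq2). Rps3a1, of the small subunit, fell by 1.80 ± 0.25, Rpl36a by 1.76 ± 0.29 and Rps15a by 1.75 ± 0.29, the last pair with overlapping groups, and Rps15a was not called without the block. Several of these genes have near-identical pseudogene copies, so single values are uncertain. Cell cycle genes were also lower, as 8 of 13 tested fell and none rose (28 listed; median -1.57). Mcm6, of the DNA replication helicase, fell by 3.66 ± 0.56, and Hmgb2 fell by 2.76 ± 0.42. Mcm7, of the same helicase, fell by 2.57 ± 0.46, and Ccnd2, a cyclin, fell by 2.08 ± 0.35 with overlap.

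**Figure D3:**
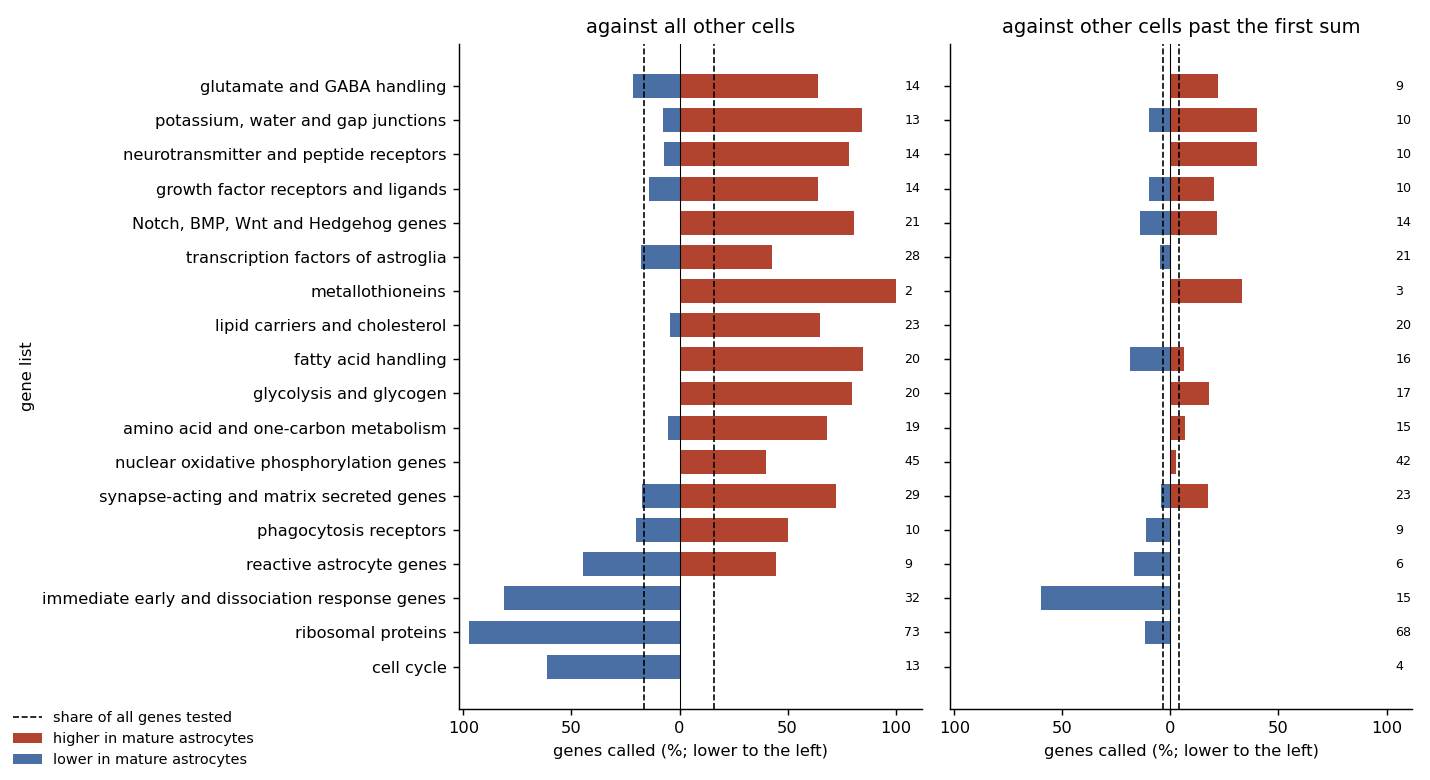
Share of each gene list called higher (red, to the right) or lower (blue, to the left) in the mature astrocytes, in percent of the listed genes tested, whose number stands at the right edge, with dashed lines at the share of all genes tested. Against all other cells (left) the share of all genes was 16% higher and 16.5% lower, and against the nearest other cells (right) it was 4.1% and 3.46%.

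The closer question was what separates the mature astrocytes from the other cells that passed the first gate sum. These were cells with more Hopx and Sparc or with too few mature markers, and 4 experiments had at least 5 cells on both sides, with 105 members and 84 nearest other cells. In experiments 1, 2, 3 and 5 their median depth was 1951, 5643, 4106 and 4201 transcripts per cell, against 2960, 2636, 4973 and 2157 in the mature astrocytes. Of 2025 genes tested, 83 were higher in the mature astrocytes (4.1%) and 70 were lower (3.46%), 7.56% in all, and 389 had an unadjusted p under 0.05. DESeq2 called 55, and the fit without the experiment as a block 6. Without experiment 2 the count was 41 and without experiment 3 it was 44, so the count depends on single experiments.

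Of the 12 largest rises named by the rule, those of Vegfa and Btbd17 lost no call under any alternative run. Vegfa stood at 756, 927, 898 and 666 CPM in the mature astrocytes of experiments 1, 2, 3 and 5 and at 259, 194, 347 and 159 CPM in the nearest other cells. It rose by 1.80 ± 0.24 with no overlap (edgeR adjusted p = 1.29e-05). Btbd17, which encodes a secreted protein with a BTB domain (chr11:114791217-114795945), had 583, 321, 357 and 292 CPM against 51.8, 54.6, 83.4 and 86.6 CPM and rose by 2.36 ± 0.34 (adjusted p = 3.76e-05).

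The other large rises were lost without the experiment block, and some without single experiments. Igfbp2, which binds insulin-like growth factors (chr1:72824503-72852474), had the largest, at 2.96 ± 0.53, with 105, 275, 422 and 179 CPM against 0, 14.9, 16.6 and 130 CPM. The groups overlapped through experiment 5, and the call was lost without experiment 3. Dner, a Notch ligand (chr1:84369839-84696221), rose by 2.55 ± 0.50, with 204, 206, 109 and 179 CPM against 25.9, 24.8, 8.31 and 72.2 CPM. Mfsd2a, a lipid transporter, rose by 2.40 ± 0.52, Lmo4, a transcriptional cofactor, by 2.36 ± 0.42, Gabrg1, a GABA-A receptor subunit, by 2.10 ± 0.48, and Aifm3 by 1.93 ± 0.37. Pfkp, a phosphofructokinase of glycolysis, rose by 1.90 ± 0.37. Usp54, Tuba4a and Arnt2 rose by 2.05 ± 0.50, 2.02 ± 0.45 and 1.61 ± 0.45 and lost their calls without experiment 2 and without experiment 3, and Lmo4 without experiment 2.

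The largest fall was that of Islr (chr9:58156268-58204306), with 0, 11.4, 9.08 and 0 CPM in the mature astrocytes and 391, 450, 109 and 274 CPM in the nearest other cells. It had 2 transcripts in the members, a ratio of 63 with a counting interval of 17.1 to 526. Frzb, a secreted inhibitor of Wnt signals (chr2:80411970-80447625), had 15, 11.4, 18.2 and 0 CPM against 104, 255, 209 and 116 CPM and fell by 3.66 ± 0.57. Cyp1b1, a cytochrome P450 (chr17:79701537-79715061), fell by 3.05 ± 0.55, with 9.08 to 32.5 CPM against 115 to 199 CPM. None of the 3 lost its call under the alternatives that could be run for it. Tmem132b, Scamp1, Ptgds, Kif11 and Itih3 fell by 2.59 ± 0.47, 1.89 ± 0.47, 1.70 ± 0.46, 1.66 ± 0.49 and 1.60 ± 0.28. All 5 were lost without the block, Tmem132b, Scamp1 and Kif11 also without experiment 2, Scamp1 without experiment 3, and Kif11, a mitotic motor whose groups overlapped, without experiment 1 and without experiment 5.

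**Figure D4:**
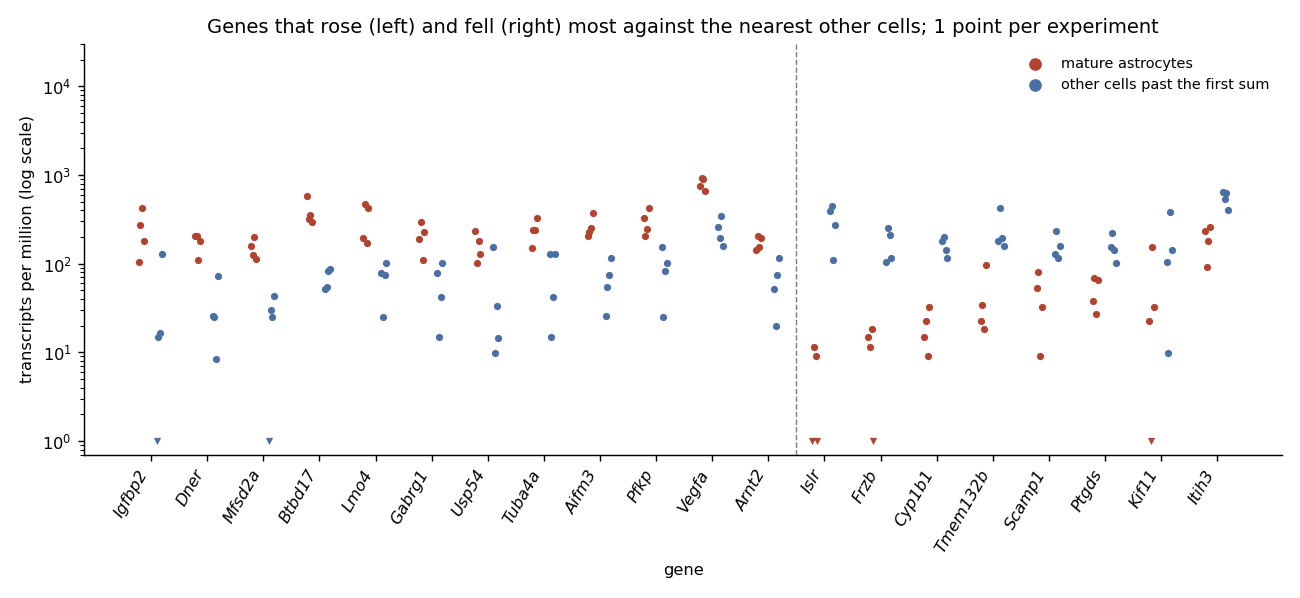
Level of each gene in CPM (log axis; values under 1 drawn as triangles at 1) in the mature astrocytes (red) and in the other cells past the first gate sum (blue), with 1 point for each of experiments 1, 2, 3 and 5. The 12 genes left of the dashed line rose and the 8 to the right fell, and the groups overlapped for Igfbp2, Usp54 and Kif11.

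Of the gap junction, potassium and water list 4 of 10 tested genes rose and 1 fell (median 0.47, against -0.03 over all genes). Gja1 had 2928, 3900, 2602 and 3059 CPM against 1628, 859, 1675 and 1982 CPM and rose by 1.09 ± 0.22. Gjb6 and Slc4a4 rose by 1.22 ± 0.26 and 1.01 ± 0.26, Slc4a4 with overlapping groups. Both were lost without experiment 3 and without experiment 2. Kcnj10, the inward rectifier that carries potassium into astrocytes (chr1:172341210-172374085), went the other way and is named after its value was seen. It had 377, 412, 430 and 520 CPM against 681, 790, 699 and 794 CPM and fell by 0.77 ± 0.22 (edgeR adjusted p = 0.0251). Against all other cells it rose by 1.0 ± 0.33 (edgeR adjusted p = 0.025). In DESeq2 the list held 4 higher and 0 lower in the closer comparison, so the fall of Kcnj10 was not called there.

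Of 9 glutamate and GABA genes tested 2 rose and none fell (2 and 0 in DESeq2). Slc38a3, which releases glutamine (chr9:107650634-107669530), had 521, 732, 908 and 780 CPM against 286, 145, 200 and 505 CPM and rose by 1.58 ± 0.27, and Glul, glutamine synthetase (chr1:153899944-153909723), rose by 1.02 ± 0.20. Slc1a2 had 11485, 9614, 10597 and 13714 CPM in the mature astrocytes, against 11699, 6160, 11543 and 13676 CPM in the nearest other cells, a log2 difference of 0.13 ± 0.20 that was not called. Of 10 receptor genes 4 rose, namely Gabrg1, Ednrb (1.21 ± 0.25), Grm3 (0.88 ± 0.27) and Gpr37l1 (0.82 ± 0.20). The last 3 lost their calls without experiment 2, Grm3 and Gpr37l1 also without experiment 3. Grm3 lost its call in 10 of 18 alternative runs, DESeq2 among them. Bcan, a proteoglycan of the brain matrix (chr3:87987531-88000230), had 3563, 3284, 3531 and 2782 CPM against 1912, 832, 1363 and 2082 CPM and rose by 1.19 ± 0.21, beside Btbd17, Il18 and Serpine2. In this list of 23 tested genes Itih3 alone fell (4.35%, against 3.46% of all genes). Il18 rose by 0.94 ± 0.28 and lost its call without each of experiments 2, 3 and 5. In all it was lost in 10 of 18 alternative runs, DESeq2 among them.

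None of 20 lipid carrier and cholesterol genes was called in either direction by edgeR or DESeq2. In glycolysis 3 of 17 rose and none fell (17.6% higher against the 4.1% of all genes; median 0.44 against -0.03; 1 and 0 in DESeq2), namely Pfkp, Pfkm (1.10 ± 0.28) and Ldhb (0.70 ± 0.22), the last pair lost without experiment 2 and without experiment 3. In oxidative phosphorylation 1 of 42 rose (2.38%, against 4.1% of all genes). This was Atp5c1, with 407, 727, 633 and 650 CPM against 181, 324, 259 and 318 CPM (1.18 ± 0.24). In the amino acid list 1 of 15 rose (6.67%), Prodh, by 1.12 ± 0.30, lost without experiment 2 and without experiment 3. Among 3 metallothioneins tested Mt1 rose by 0.72 ± 0.19 with overlap and was lost without those same experiments.

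Of 16 fatty acid genes 1 rose and 3 fell (18.8% lower against the 3.46% of all genes). Fabp7, a fatty acid-binding protein of radial glia (chr10:57784881-57788450), had 522, 481, 588 and 227 CPM against 998, 1146, 1838 and 1171 CPM and fell by 1.49 ± 0.23 with no overlap (adjusted p = 6.93e-05). Dbi and Fads1 fell by 0.79 ± 0.19 and 0.80 ± 0.25, both lost without experiment 3 and Fads1 also without experiments 1 or 2. Fads1 lost its call in 11 of 18 alternative runs in all, DESeq2 among them. Ppargc1a rose by 1.54 ± 0.42, lost without experiment 1 or 2. Cd9, a tetraspanin (chr6:125460266-125494791), had 181, 263, 164 and 162 CPM against 416, 1022, 469 and 419 CPM and fell by 1.56 ± 0.26. Vim, the filament protein vimentin, fell by 1.22 ± 0.33 with overlap and was lost without each of experiments 2, 3 and 5. Of 14 genes of the Notch, BMP, Wnt and Hedgehog list, Dner, Id3 (1.01 ± 0.28) and Id2 rose and Dkk3 and Gas1 fell by 1.15 ± 0.34 each. DESeq2 called none of the list, in which it gave Dner no adjusted p. The calls of Id3, Dkk3 and Gas1 were lost without experiment 3, those of Dkk3 and Gas1 without experiment 2 and that of Id3 without experiment 5. Of 21 transcription factors tested Zbtb20 alone fell (4.76%, against 3.46% of all genes). It fell by 0.85 ± 0.23 and was lost without each of experiments 2, 3 and 5.

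Immediate early genes were lower here too, as 9 of 15 tested fell and none rose (median -1.24; 4 and 0 in DESeq2), but not in every experiment. Fos (chr12:85473890-85477273) had 37.6, 114, 620 and 130 CPM in the mature astrocytes of experiments 1, 2, 3 and 5 and 1211, 1274, 3733 and 101 CPM in the nearest other cells. It fell by 2.96 ± 0.35 (adjusted p = 9.84e-07), although it was lower in 3 of 4 experiments and the groups overlapped. Egr1 (1.97 ± 0.35 lower on the log2 scale) and Cyr61 were likewise higher in the mature astrocytes of experiment 5. Cyr61 was lost without experiment 2 and without experiment 3. Junb fell by 1.52 ± 0.40 in 4 of 4. Of 68 ribosomal protein genes 8 fell and none rose (median -0.56), among them Rpl36a, Rps23 and Rps24. DESeq2 called none of the 68, where Rpl36a had no adjusted p. Rps23 and Rps24 were lost without experiment 2 and without experiment 3.

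The 114 niche members were compared with one another cell by cell. Of 819 genes with a mean of at least 0.3 transcripts in the near-equal-depth table, the median ratio of variance to mean was 1.31. Rn45s, the precursor of ribosomal RNA, had a ratio of 46.7 and Malat1, a nuclear long noncoding RNA, one of 45.5. Both moved with the experiment, as Malat1 had a mean of 58.3 transcripts per cell in experiment 1 and 4.68 in experiment 2, and Rn45s 40.8 in experiment 3 and 0.33 in experiment 4. Kcnq1ot1 and Gm17821, the next, had 13.9 and 10.7. Of protein-coding genes Cst3, a secreted protease inhibitor, had 9.61, Apoe 7.65, Fos 5.85 and Slc1a2 5.68, and every niche member held a transcript of Cst3, Apoe and Slc1a2. Clu had 5.78 and was also in every member, but it is a gate gene read from the table the gate used. Psmd4 and A630089N07Rik had 6.80 and 6.81, and Mir5109 had 8.83 but is listed only in the files of experiment 2 among the niche libraries.

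Gfap varied among the members and across experiments. It had 196, 275, 412, 2462 and 813 CPM in the mature astrocytes of experiments 1 to 5 and 14.9, 50, 64.9, 53 and 294 CPM in all other cells. At near-equal depth 42.1% of the niche members held a Gfap transcript, from 23.3% in experiment 1 to all 9 cells of experiment 4. One cell of experiment 4 held 29.5% of the Gfap transcripts of all niche members. In the nearest other cells Gfap had 337, 474, 335 and 1303 CPM in experiments 1, 2, 3 and 5, above or below the mature astrocytes depending on the experiment.

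Mt3, a metallothionein known from brain, had 0, 760, 9.08, 29.6 and 341 CPM in the mature astrocytes of experiments 1 to 5 and 411 CPM in the Nestin-GFP library. In experiment 2, 19 of 22 members held it in the full counts, while 0 of 43 did in experiment 1, where 0 of 133352 transcripts allows up to 22.5 CPM. The nearest other cells moved with the members, with 633 CPM in experiment 2 and 25.9 CPM in experiment 1. Fos had 37.6, 114, 620, 1466 and 130 CPM in the members, and 1 cell of experiment 4 held 31.3% of the Fos transcripts of all niche members.

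**Figure D5:**
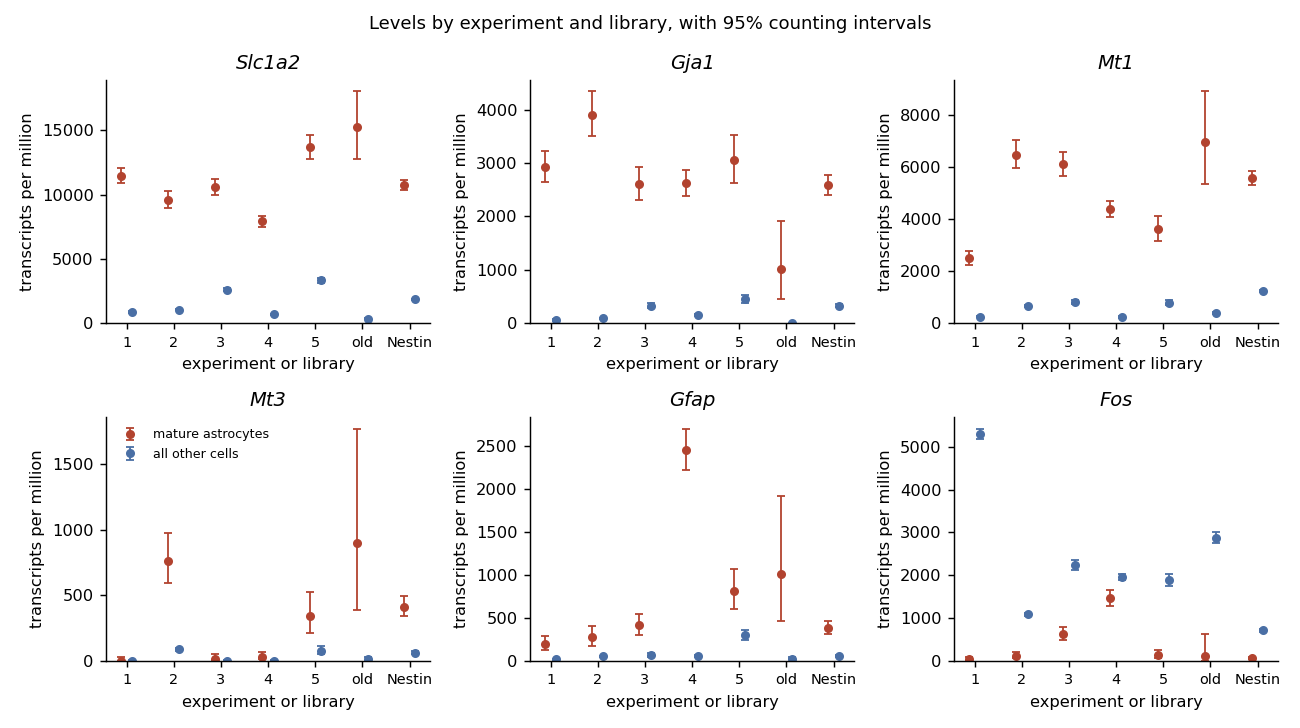
Level of 6 genes in CPM in the mature astrocytes (red) and all other cells (blue) of each experiment, the old library and the Nestin-GFP library, with 95% Poisson counting intervals. Slc1a2, Gja1 and Mt1 stood above the other cells in each, whereas Mt3 in the mature astrocytes ran from 0 to 760 CPM among the experiments and Gfap from 196 to 2462 CPM.

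The Nestin-GFP library gave 45 mature astrocytes with 270396 transcripts, and with 1 library there was no test. Nes itself had 1 transcript in these cells, 3.70 CPM, against 0 in experiments 1, 2, 3 and 5 and 17.8 CPM in experiment 4. Of 2262 genes with a mean of at least 100 CPM, 263 lay above every niche experiment (11.6%) and 395 below every one (17.5%). At near-equal depth, of 2604 genes compared, 392 lay above every niche experiment and 340 below. Which side held more genes thus depended on how depth was handled, and no general lean is read from these counts. The 17.5% used below is that of the full counts. The excess of Camk2a, Ddn, Adcy1 and Ppp1r16b came mainly from 1 well. Camk2a, a kinase of excitatory neurons, had 1251 CPM against at most 9.08 CPM in a niche experiment, and that well held 98.5% of it. Without the well it had 20.5 CPM, Ddn fell from 419 to 28.7 CPM, Adcy1 from 393 to 20.5 CPM and Ppp1r16b from 122 to 28.7 CPM. The well lay near the limits of the gate, with a first sum of 22, a second sum of 3 and Hopx plus Sparc at 1.

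Ptgds, prostaglandin D synthase, was not the product of one well. It had 888 CPM, with a counting interval of 779 to 1007, against 27.3 to 68.5 CPM in the niche experiments, and 43 of the 45 cells held it. The other cells of the library held 10542 CPM of it, and their markers of mature oligodendrocytes, which express Ptgds, summed to 28145 CPM against 2327 CPM in the 45 cells and 484 ± 235 CPM in the niche members. Whether free or shared RNA of those cells plays a part was not tested. Gm20594 had no transcript, which allows up to 11.1 CPM, against 105 to 1689 CPM in the niche, and Gm12070, Krr1, Phf12 and H2-T23 had 14.8, 11.1, 33.3 and 7.40 CPM against lowest niche values of 57.1, 34.3, 103 and 32.5 CPM. By list, 11 of 44 oxidative phosphorylation genes compared lay below every niche experiment (25%), as did 6 of 16 amino acid genes (37.5%), 5 of 15 immediate early genes (33.3%) and 3 of 7 reactive astrocyte genes (42.9%), against the 17.5% of all genes. For ribosomal genes it was 8 of 66 (12.1%), and the other 13 lists had 0 to 5 such genes each, at most 30% of a list. Slc1a2 and Apoe lay within the niche range. Of the genes that the gate used, which are given as a description, Aqp4 and Clu lay within it and Aldoc had 9059 CPM against at most 8733 CPM.

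The old library gave only 4 mature astrocytes with 8907 transcripts, so that 3 counts correspond to 337 CPM and few statements can be made. At this depth 50.2% of 3479 genes lay above every niche experiment and 26.3% below. Gja1 had 9 transcripts, 1010 CPM with a counting interval of 462 to 1918, against 2602 to 3900 CPM in the niche experiments. Dclk1 and Son had no transcript, against 1139 to 3385 and 1138 to 2758 CPM. Appl2 and Gm17821 had 2 and 3 transcripts, and the genes furthest above the niche, Ppp1r16b, Mttp, Prkar1b, Dcps and Akap2, had 3 or 4 each. Gfap had 9 transcripts, 1010 CPM with an interval of 462 to 1918, which lies within the range of the niche experiments.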

How the data were processed

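Single cells in 33 libraries were sequenced by SORT-seq, a CEL-seq2 protocol with 4-base molecular identifiers, per the labels' protocols. The deposited values of each well are estimated counts of a gene's transcripts, which the authors corrected for saturation of the identifiers. The submitters' processing notes name BWA, version 0.6.2-r126, and the build mm10. A small identifier space limits how well very high counts can be told apart. The deposited table of 1536 cells, treated here as a score, holds whole transcripts plus a constant of 0.1 at a near-equal depth set by the authors, who state no method in the labels. Library totals over all wells ran from 29427 to 828822 transcripts in the niche libraries, and were 782031 in the old and 1982172 in the Nestin-GFP library. Spike-ins were left out, as were mitochondrial genes, which no niche file lists.

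Cells were chosen in the table and their counts, rounded to whole numbers, were summed per experiment over members and over comparison cells, with at least 5 cells on each side. edgeR 4.0.16 (R 4.3.3) tested them by quasi-likelihood with TMM scaling, its filter on low counts, the experiment as a block and Benjamini-Hochberg adjustment at 0.05, without the 13 gate genes. Members and comparison cells of an experiment come from the same sorts and deviated together, with a correlation of 0.259 to 0.530 in the wide and 0.265 to 0.662 in the closer comparison. Counts were simulated with 200 changed genes, 1 mean per gene, a dispersion of 0.1 and no difference between experiments but depth. There the wide comparison recovered 17.5%, 89.5% and 98% of changes of 2-fold, 4-fold and 8-fold among 5567 genes, and the closer one 16%, 90.5% and 98.5% among 2025. Of the calls, 1.65% to 6.22% were false in the wide and 2.96% to 3.21% in the closer comparison. The real experiments differed, so these rates need not hold for them. DESeq2 1.42.0 was an alternative.

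Named genes were the 12 highest and 8 lowest changes among called genes with a mean of at least 100 CPM in the higher group that moved the same way in every experiment, and up to 4 of the largest calls of each of 18 gene lists. A few genes that these rules pick are not reported here. For variation they were the 12 highest ratios of variance to mean, and for each single library the 5 genes furthest above and the 5 furthest below the niche range. The members and lists were chosen with earlier results of these data known. Intervals cover counting error only, at 95%, as exact binomial or Poisson limits, and the floor is 3 counts. Coordinates are those of GENCODE vM21 on GRCm38, the build also called mm10. Doublets were not called, and wells that shared a barcode number across libraries were compared. Of 110 such pairs of members, with a median correlation of 0.337 against 0.338 for other pairs, none was a member's best match.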

Additional observations from a re-analysis of the deposited data

Results flagged for a closer look

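Of 64 groups of values tested, 4 held 1 experiment that stood apart from the rest, where chance gives about 1 in 20. That rate does not apply to Coro1a, Efnb3 and Mir5109, which were 0 in the rest, so that any transcript stands apart. Coro1a had 5.92 CPM in the mature astrocytes of experiment 4, from 1 transcript, and 0 in the other experiments. Efnb3 had 22.8 CPM in those of experiment 2 and 0 elsewhere. Mir5109 had 2803 CPM in experiment 2 and 0 in the other niche experiments, whose files do not list it. Psmd4, a proteasome subunit, had 422 CPM in experiment 2 against 67.7 to 164 CPM in the others, and the cell with the most held 25.7% of its transcripts.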

How the results depend on the processing

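Against all other cells the count of 1808 genes called rose to 3449 with no filter on low counts, 2453 of them lower, and was 869 in the near-equal-depth table, 417 higher and 452 lower. Counts outside that table gave 581 lower. Without the replicate block the count was 1440, and leaving out each experiment gave 1492 to 1998. Of the 86 named genes 3 lost their call without the block and 1 without experiment 1, and none reversed in any alternative run.

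In the closer comparison the count of 153 was 55 in DESeq2 (40 higher, 15 lower), 6 with no replicate block (3 higher, 3 lower), 77 with at least 3 cells (50 and 27), 70 with a second sum of at least 5 (44 and 26), 43 in the near-equal-depth table (28 and 15) and 76 outside it (44 and 32). Leaving out each experiment gave 41 to 196, with 28 to 111 higher and 13 to 85 lower. Of 55 named genes 50 lost their call without the block, 28 of 48 still tested without experiment 2, and 26 of 46 without experiment 3. None reversed. The cause of these changes was not tested.

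Merging gene symbols, which differ in the files of experiment 3, and leaving out 1 Nestin-GFP well were chosen after seeing the data. With merged symbols all 86 named genes of the wide comparison and all 54 still tested in the closer one kept their calls. The 4 old cells and the 9 cells of experiment 4 limit what can be said of either.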

Other observations

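Some genes had measured levels close to one another in the mature astrocytes of all 5 experiments. Of 224 genes with a mean of at least 500 CPM, the coefficient of variation over experiments had a median of 27.4%. Rtn3, a reticulon of the endoplasmic reticulum, had the smallest at 4.61%, with 909, 959, 842, 911 and 910 CPM. Slc25a5, a mitochondrial nucleotide carrier, and Gpm6b, a membrane proteolipid, followed with 10.3% and 10.7%. These are the smallest values of many genes, and they were not set against counting error, so steady expression cannot be read from them. The most uneven protein-coding gene named here was Gfap at 113%. Malat1, at 91.5%, had 34464, 5002, 14859, 6030 and 7113 CPM, and Rn45s, at 124%, had 1647, 9339, 25045, 138 and 4595 CPM.

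Experiment 5 held the highest level for 72 of the 224 genes and the lowest for 22, whereas experiment 4, the deepest per cell, held the highest for 39 and the lowest for 74. Whether depth plays a part was not tested.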
